A study of Mus musculus with 2 samples.

Results

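The Mir34 and Mir449 genes were examined in bladders of newborn mice (strain B6NCrl, postnatal day 0). The members were chosen by name: Mir34a, Mir34b, Mir34c, Mir449a, Mir449b and Mir449c, 6 of the 1973 miRNA genes in the count tables, all with a row of their own. From total RNA, molecules under 30 nucleotides per the labels were sequenced as 2 miRNA libraries. Each came from 1 whole bladder of a separate pup of 1 litter, called pup 1 and pup 2 after the labels, whose sex is recorded as not collected. The libraries form a single group with no treatment, so the values describe the tissue and the spread between the littermates, and no condition was tested. Pup 1 had 7460621 counts on the sense strand of the genes and pup 2 had 3636650. Levels are sense-strand counts per 1000000 such counts (CPM). A count of 0 allows up to 0.402 CPM in the library of pup 1 and 0.825 CPM in that of pup 2. The reads carry no molecular identifiers, so such limits and the intervals given here cover counting error only. Errors are SDs over the pups (n = 2). In a whole organ, fewer cells of a type and less RNA per cell cannot be told apart.

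MicroRNAs guide a silencing complex to messenger RNAs, mainly through the seed, the bases 2 to 8 of the mature strand, so miRNAs with a shared seed have overlapping targets. Mir34a and the neighbouring genes Mir34b and Mir34c are known as transcriptional targets of the tumour suppressor p53 and repress genes of the cell cycle. Mir34b, Mir34c and the Mir449 genes are known for their abundance in multiciliated epithelia, such as those of the airway and oviduct, and in male germ cells, and the family is needed there for motile cilia. The urothelium that lines the bladder is not a multiciliated epithelium.

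The sequences show what the genes have in common. In the RefSeq table (build GRCm38.p6), 5 of the 6 members had a hairpin and 4 had a mature 5p strand. Mir449b had no entry, and Mir34c had a hairpin and a 3p strand. The mature 5p strands are printed 5′ to 3′ with the seed in capitals, and the Mir34c hairpin with the same 7 bases in capitals, because the seed is what joins the 3 loci.
miR-34a-5p: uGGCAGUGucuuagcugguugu
miR-34b-5p: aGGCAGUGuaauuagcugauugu
miR-449a-5p: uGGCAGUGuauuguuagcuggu
miR-449c-5p: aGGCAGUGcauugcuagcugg
Mir34c hairpin: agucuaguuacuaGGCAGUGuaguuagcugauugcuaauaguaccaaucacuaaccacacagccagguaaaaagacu

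The 4 mature 5p strands lie on GRCm38.p6 at chr4:150068473-150068494 (plus strand) for miR-34a-5p, chr9:51103610-51103632 (minus strand) for miR-34b-5p, chr13:113037549-113037570 (plus strand) for miR-449a-5p and chr13:113036008-113036028 (plus strand) for miR-449c-5p. Among 1738 mature strands in the table, these 4 alone carried GGCAGUG at bases 2 to 8. Likeness was counted place by place, with no gap allowed and with the shared seed bases included. Over a window of 22 bases that begins 1 base before GGCAGUG in each hairpin, Mir34b and Mir34c had 21 identical bases and differed by A11G, counted from 1 at the 5′ end of the window with the Mir34b base first. Mir449a and Mir449c had 18 identical bases, and Mir34a and Mir449a had 15. Mir34a shared 11 bases with Mir34b and 11 with Mir34c in this count. The other pairs had 10 to 12. With a shift of 1 base after the seed, the printed miR-34a-5p and miR-34b-5p match at more places. The counts thus do not show which member Mir34a is most like.

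The 3p strands of Mir34b and Mir34c also share a seed, here in capitals, which no other mature strand of the table carried. They are shown because the counts are given per gene and do not separate the 2 strands of a hairpin.
miR-34b-3p: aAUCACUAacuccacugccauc
miR-34c-3p: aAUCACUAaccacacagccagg
They lie at chr9:51103574-51103595 and chr9:51103044-51103065 on the minus strand. For the 5 members with a hairpin, the longest exact run of bases shared with any other hairpin in the table, in either orientation, was 11 to 14 bases. This is shorter than a mature miRNA. Mir449b, matches with mismatches, such as between Mir34b and Mir34c, and matches elsewhere in the genome were not examined.

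The 6 genes lie in 3 places of the GRCm38 assembly in the GENCODE M21 annotation. Mir34a (ENSMUSG00000065493.1) is on chromosome 4 at 150068454 to 150068555, plus strand, and its last 17 bases overlap an exon of Gm37795, a transcribed locus listed as still to be tested. The nearest protein-coding gene that does not overlap it is Gpr157, 18809 bases away. Mir34b (ENSMUSG00000065492.1, 51103562 to 51103645) and Mir34c (ENSMUSG00000065587.1, 51103034 to 51103110) are on the minus strand of chromosome 9 with 451 bases between them. No gene of their own strand overlaps them, and on the plus strand they lie within an intron of Btg4, which acts in the clearance of maternal messenger RNA in oocytes. The nearest protein-coding gene that does not overlap them is 4833427G06Rik, on their own strand, 955 bases from Mir34c. Mir449c (ENSMUSG00000076146.1, 113035983 to 113036091), Mir449b (ENSMUSG00000078027.1, 113037419 to 113037498) and Mir449a (ENSMUSG00000065575.1, 113037534 to 113037624) follow each other on the plus strand of chromosome 13. All 3 are intronic in Cdc20b, a protein-coding gene of the same strand. The nearest protein-coding gene that does not overlap them is Gpx8 on the minus strand, 5128 bases from Mir449a and 6661 bases from Mir449c. Mcidas, a regulator that starts multiciliated cell differentiation, lies further off, 35588 bases from Mir449c.

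The question for levels is which of these genes the newborn bladder expressed. At a detection limit of 1 CPM and 3 counts in both libraries, 4 of 6 members were detected, among 335 detected genes in all. Mir34c was the highest, with 1875 counts in pup 1 and 935 in pup 2, or 251 and 257 CPM (mean 254 ± 4.09, SD, n = 2). It ranked 120 among the detected genes by mean CPM. Mir34a had 1309 and 654 counts, or 175 and 179.8 CPM (mean 178 ± 3.10), and ranked 131. Mir449a had 785 and 344 counts, or 105 and 94.6 CPM (mean 99.9 ± 7.51), and ranked 157. These 3 genes were above 64.2%, 60.9% and 53.1% of the detected genes. Mir34b had 91 and 45 counts, or 12.2 and 12.4 CPM (mean 12.3 ± 0.125), and ranked 238, above 29.0% of the detected genes.

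Mir449b and Mir449c were not detected. Mir449c had 2 counts in each library, or 0.268 CPM in pup 1 (exact Poisson 95% interval 0.0325 to 0.968) and 0.550 CPM in pup 2 (0.0666 to 1.99). Mir449b had 0 counts in pup 1 and 1 count in pup 2, 0.275 CPM (0.00696 to 1.53). These counts do not separate the 2 genes from each other or from a level under the limit. All counts of the members were in the column read as the sense strand: 0 of 4062 in pup 1 and 0 of 1981 in pup 2 fell on the opposite one, which allows shares up to 0.0739% and 0.151%. Over all genes the opposite-strand share was 3.17% and 3.18%.

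**Figure D1:**
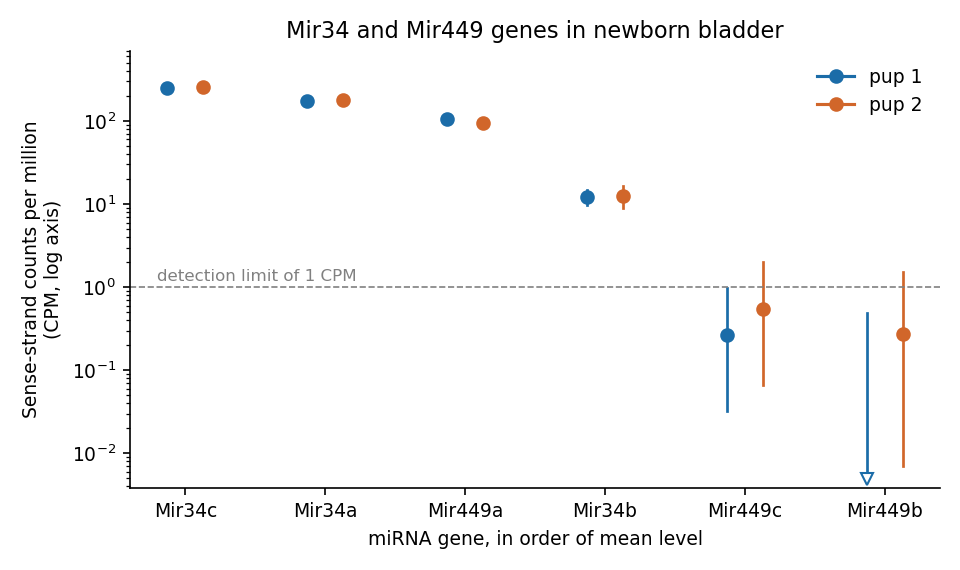
Sense-strand CPM of the 6 genes in each pup, on a log axis, with exact Poisson 95% intervals as vertical lines, shorter than the points for the upper 3 genes; the open triangle stands for 0 counts of Mir449b in pup 1. Mir34c, Mir34a, Mir449a and Mir34b keep 1 order in both pups, and Mir449c and Mir449b lie under 1 CPM.

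The order Mir34c, Mir34a, Mir449a, Mir34b was the same in both pups, and each step was larger than the spread between them. Mir34c was 1.43-fold over Mir34a in pup 1 (exact binomial 95% interval 1.33 to 1.54) and 1.43-fold in pup 2 (1.29 to 1.58). Mir34a was 1.67-fold over Mir449a in pup 1 (1.53 to 1.82) and 1.90-fold in pup 2 (1.67 to 2.17). Mir449a was 8.63-fold over Mir34b in pup 1 (6.94 to 10.8) and 7.64-fold in pup 2 (5.59 to 10.7). The members' mature strands in the RefSeq table are 21 to 23 bases long; the table has no 5p strand of Mir34c. Per 100 bases of the annotated hairpin gene the order stayed the same, with 330.1 ± 5.31 CPM for Mir34c, 174 ± 3.04 for Mir34a, 109.8 ± 8.26 for Mir449a and 14.6 ± 0.149 for Mir34b.

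Together the 6 genes had 544.5 CPM in pup 1 and 544.7 CPM in pup 2, or 0.0545% of the gene counts. Mir143 alone had 524810 CPM, and with it left out of the totals the sum was 1146 CPM. With Mir143 kept in the totals, the 6 genes taken as a single gene would rank 89 of 1973. By locus, Mir34b and Mir34c held 48.9% ± 0.757 of the family's counts, Mir34a 32.6% ± 0.557 and the Mir449 genes 18.4% ± 1.31. Mir34c alone held 46.2% in pup 1 (exact binomial 95% interval 44.6% to 47.7%) and 47.2% in pup 2 (44.98% to 49.4%). The share of Mir449a was 19.3% in pup 1 (18.1% to 20.6%) and 17.4% in pup 2 (15.7% to 19.1%). The intervals of the pups overlap for both genes. Overlap is not a test, and a difference between the pups in the makeup of the family was not tested.

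A further question is how evenly the genes of 1 locus were represented, since neighbours on a strand can be cut from 1 primary transcript. In the Mir34b and Mir34c locus the downstream gene dominated. Mir34c counts were 20.6-fold those of Mir34b in pup 1 (exact binomial 95% interval 16.7 to 25.7) and 20.8-fold in pup 2 (15.4 to 28.7). The pups differed by 0.012 in the log2 of this ratio, below its counting SE of 0.27. The pair has the most alike windows around the seed, at 21 of 22 bases, and the hairpins shared a run of 11 bases at most.

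**Figure D2:**
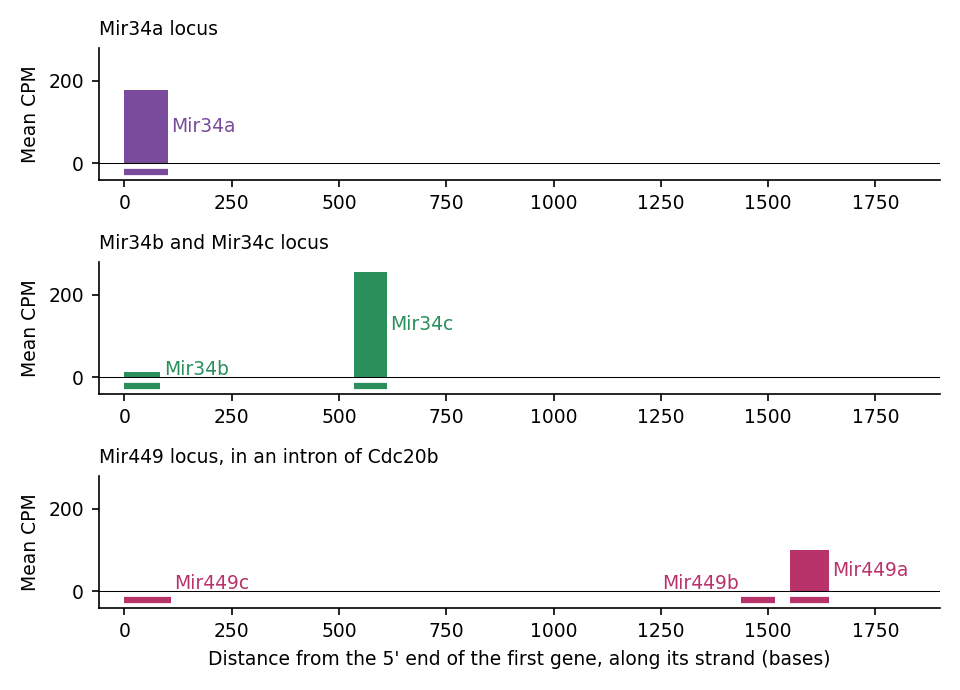
Mean CPM over both pups (bar height) of the genes at each locus, placed by the distance in bases from the 5′ end of the first gene along the strand; bar width is the annotated hairpin and the mark under the axis shows its place. Mir34c stands over Mir34b, and in the Mir449 locus the Mir449a bar alone is visible.

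In the Mir449 locus nearly all counts fell on the last gene. Mir449a had 785 counts against 2 of Mir449c in pup 1, a ratio of 392 with an interval of 108 to 3247, and 344 against 2 in pup 2, a ratio of 172 (47.3 to 1426). Against Mir449b, whose hairpin lies upstream with 35 bases between them, 785 counts stood against 0 in pup 1, with an exact lower limit of 212 for the ratio, and 344 against 1 in pup 2, a ratio of 344 (61.3 to 13626). The widths of these intervals come from the 0 to 2 counts of the lower gene.

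Uneven neighbours were common in these libraries. Among 107 pairs of consecutive detected miRNA genes on a strand with under 10 kb between them, the higher gene had a median of 7.32-fold the counts of the lower, with a range from 1.02 to 1086. In 34 pairs the fold was larger than the 20.7-fold of Mir34c over Mir34b. The Mir449 pairs are not among the 107, since Mir449b and Mir449c were not detected. Some pairs share a locus, so the 107 are not independent, and the comparison is a description.

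**Figure D3:**
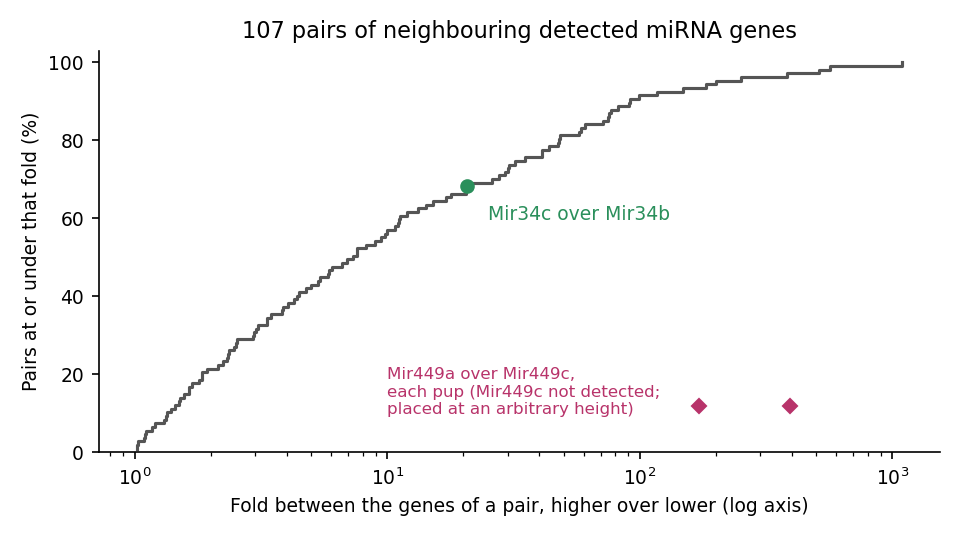
Cumulative share of the 107 pairs of neighbouring detected miRNA genes (vertical axis, percent) by the fold between their counts (horizontal log axis). The pair Mir34c and Mir34b lies at 20.7-fold, with 34 pairs beyond it; the diamonds give Mir449a over Mir449c in each pup, at 172 and 392, at a height with no meaning.

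The littermates were then compared gene by gene, over all 362 genes with at least 10 counts summed, by a two-sided exact binomial test on counts scaled by TMM with Benjamini-Hochberg adjustment. This test sets the libraries against read counting noise alone and tests no condition. It called 117 genes, 32.3% of those tested, and 0 of the 4 tested members. None of the 4 had an unadjusted p under 0.05 in this test or in edgeR's exact test with the common dispersion, which called 1.38% of the tested genes and 0 members. That dispersion was estimated from these same 2 libraries taken as replicates, so this second test describes them and tests no difference between animals. Mir34a had a log2 ratio of pup 2 over pup 1 of 0.06 (counting SE 0.07) and Mir34c of 0.06 (0.06), and Mir34b of 0.04 (0.26). Their adjusted p-values in the exact binomial test were 0.577, 0.529 and 0.950. Mir449a was the only tested member with a negative ratio, -0.13 (0.09), with an adjusted p of 0.329 in that test.

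A p above the threshold does not show equal levels, and the exact 95% intervals give the sizes that remain possible within counting error. They ran from 0.961 to 1.13-fold for Mir34c, from 0.947 to 1.15-fold for Mir34a, from 0.803 to 1.04-fold for Mir449a and from 0.705 to 1.49-fold for Mir34b. The Mir34b interval is the widest because of its 91 and 45 counts. The median absolute log2 ratio was 0.06 over the 4 tested members, beside 0.16 over all 362 tested genes. The sign of the 3 Mir34 ratios depended on scaling: with TMM factors from all genes they were -0.0030 for Mir34a, -0.018 for Mir34b and -0.0058 for Mir34c. Over all genes the 117 calls split into 69 higher in pup 2 and 48 higher in pup 1, against 56 and 69 with DESeq2 size factors and 59 and 64 with total counts. With no count minimum, where 668 genes were tested with TMM factors from all genes, it was 50 and 68.

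**Figure D4:**
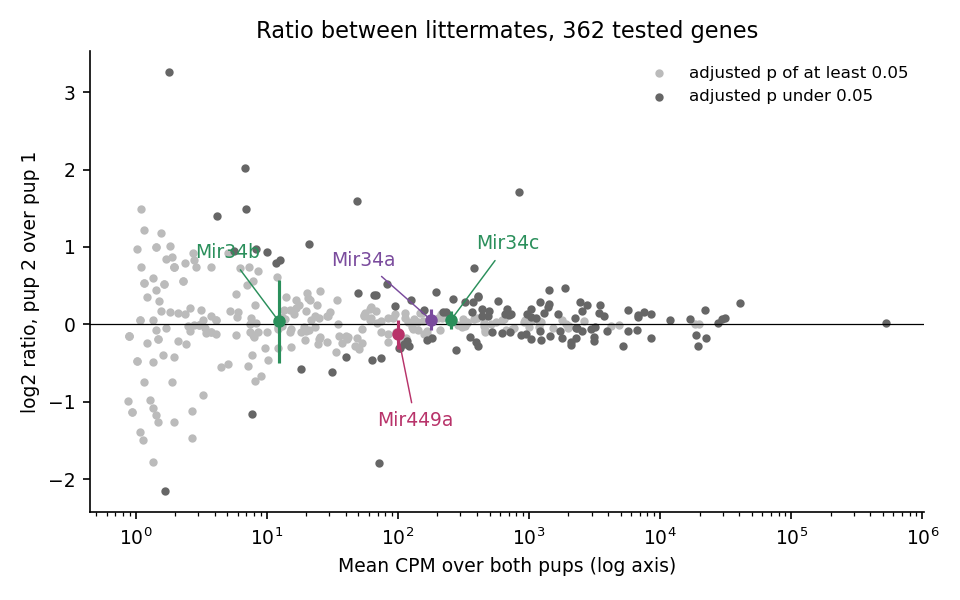
Log2 ratio of pup 2 over pup 1 (vertical axis) against mean CPM (horizontal log axis) for the 362 tested genes, with the 4 tested members in colour and their exact 95% intervals. The members lie near 0 at -0.13 to 0.06, and the interval of each includes 0.

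The family was set beside lists of marker genes of cell types. The lists of testis germ cells and multiciliated epithelium stand for cells where genes of the family are known to be abundant. They do not stand for cells expected in the bladder. Of the smooth muscle list, 2 of 3 genes were detected, Mir143 at 524810 ± 2322 and Mir145a at 11981 ± 199 CPM, and Mir145b had 0.543 CPM. The endothelial Mir126a had 19780.1 ± 190.3 CPM, and 7 of 7 genes of the epithelium list were detected. That epithelium list summed to 16484 ± 283 CPM, led by Mir429, Mir205, Mir203 and Mir200c, and its lowest members were Mir141 at 456 ± 11.5 CPM and Mir200a at 339 ± 0.136 CPM. Each member of the Mir34 and Mir449 family was below all 7. The family's 5 genes other than Mir34a, which are also the multiciliated epithelium list, summed to 367 ± 2.90 CPM.

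The lists of testis germ cells and of neurons and glia had lower sums than the epithelium list. In the list of testis germ cells, 0 of 14 genes were detected, 9 had no count in either library, and the sum was 0.938 CPM in pup 1 against 0.550 CPM in pup 2. Of the neuron and glia list, 8 of 17 measured genes were detected, and their list came to 313 CPM in pup 1 against 323 CPM in pup 2. Mir132, Mir338, Mir137 and Mir128-1 led that list at 136, 60.8, 39.9 and 25.6 CPM. Mir124a-1, Mir124a-2, Mir124a-3, Mir9-2 and Mir9-3 of the same list had 0 counts in both libraries, but near-identical copies of a miRNA lose reads that map to several places. The blood cell list, led by Mir223, Mir451a, Mir144 and Mir155, came to 1201 CPM in pup 1 against 2357 CPM in pup 2, while the Mir34 and Mir449 sum was 544.5 and 544.7 CPM. Most of the difference in the blood cell list came from Mir223, at 396 and 1274 CPM. In the exact binomial test 3 of 6 genes of the blood cell list, Mir223, Mir451a and Mir144, were called as higher in pup 2 and 0 as higher in pup 1, and Mir155, Mir486 and Mir150 were not called. The part of any of these cell types in the family's levels was not tested.

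Genes described as transcribed or processed under p53, a property shared with the Mir34 genes, were spread over a wide range of levels. Of 11 such genes other than the family, 9 were measured and 9 detected, from Mir143, Mir145a, Mir15a at 2461 ± 311 CPM and Mir16-1 at 1892 ± 407 CPM down to Mir194-1 at 4.16 ± 2.67 CPM. In the exact binomial test 8 of the 9 were called as higher in pup 2 and 0 as higher in pup 1, beside the 32.3% of all tested genes. With DESeq2 size factors or total counts the split was 6 and 1, and with the common dispersion 0 of 9 were called. Their median log2 ratio was 0.31, beside 0.05 for the 4 tested members of the Mir34 and Mir449 family and 0.03 over all tested genes. The blood cell list, whose median was 0.26, lay on the same side, and its Mir223 was called with the common dispersion; the part of blood cells in the p53-linked values was not tested. Mir143 and Mir16-1 had log2 ratios of 0.01 and 0.47, so the list did not move by 1 amount. Because the exact binomial test weighs counting noise alone, Mir143, with the most counts of the list, was called at its small ratio. Its direction depended on scaling: before TMM scaling, Mir143 had 526451 CPM in pup 1 and a lower 523168 CPM in pup 2. Some of the 9 are neighbours on a strand, such as Mir143 with Mir145a and Mir15a with Mir16-1, so the 9 are not independent.

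**Figure D5:**
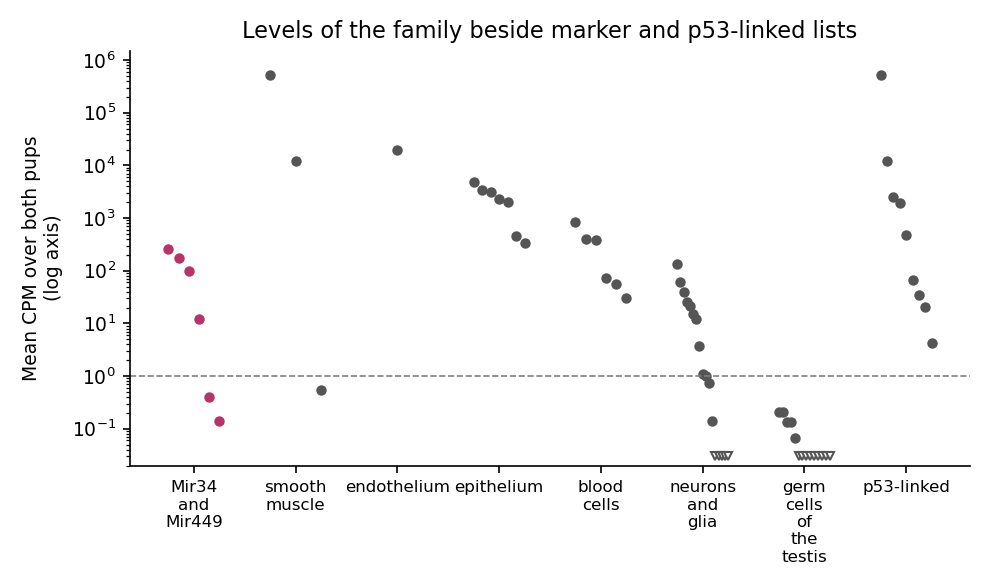
Mean CPM over both pups (log axis) of each gene in the family and in the marker and p53-linked lists; the dashed line is 1 CPM and open triangles are genes with 0 counts. Family members lie below every gene of the epithelium list, and the germ cell genes lie under 1 CPM.

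With 2 libraries, the genes most like a member can be named by level alone, as the smallest Euclidean distance in log2(CPM + 1) over both pups. Mir34c lay nearest to Mir152, at 253 and 258 CPM (distance 0.012), and then to Mir674, at 226 and 239.5 CPM. Mir34a lay nearest to Mir494, at 184 and 189 CPM, and Mir224, at 174 and 161 CPM. Mir449a lay nearest to Mir485, at 100.4 and 92.1 CPM, and Mir543, at 113 and 89.9 CPM. Mir34b lay nearest to Mir212, at 12.3 and 11.8 CPM, and Mir669h, at 12.6 and 11.8 CPM. Mir34c and Mir152, Mir34b and both of its nearest genes, and Mir449a and both of its nearest genes differed in mean by less than the larger SD of the pair, so their order is not resolved. Mir34a and both of its nearest genes, and Mir34c and Mir674, differed by more than the SD of either gene.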

How the data were processed

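The authors deposited 1 table of whole-number counts per library, not normalized and not pooled, with reads aligned to mm10 and genes of GENCODE M4, per the labels and the text deposited with them. The sources used here name no aligner, counter or filter. With no header in the tables, the strand of each column was read from the values: 2 columns add up to the other one in every gene, and of these 2 the one that held nearly all gene counts was taken as the sense strand. This assignment has no other source here. The 4 lines of unassigned reads stayed out of all totals. Reads mapped to several places, 22.7% of reads in pup 1 and 24.8% in pup 2, are among them, which can lower the counts of genes that have near-identical copies.

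Symbols and positions were taken from GENCODE M21 by Ensembl number (1894 of 1973 IDs matched) and sequences from RefSeq (GRCm38.p6). CPM used all sense-strand gene counts. Scaling factors were TMM on genes with at least 10 counts summed (edgeR 4.0.16, R 4.3.3). Log2 ratios had a prior count of 0.5 and adjusted p-values a threshold of 0.05. Per-gene intervals of levels are exact Poisson, and those of ratios and shares exact binomial (Clopper-Pearson) at 95%. Alternatives were DESeq2 1.42.0 size factors, total counts, other count minimums, counts of both strands, a prior count of 2, the common dispersion, Mir143 left out of totals, gene length and each pup left out. Python 3.11.15 with scipy 1.17.1 and pandas 2.3.3 did the rest.

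The members and lists were chosen with earlier results of these data known. Named genes are the 6 members, the 2 detected genes nearest in level to each detected member, from each list up to 4 genes of highest mean CPM, and genes outside the family with its seed, of which the table had none. Mir145b, Mir141, Mir200a, Mir194-1, Mir124a-1, Mir124a-2, Mir124a-3, Mir9-2 and Mir9-3 were named after their values were seen. Mir142, Mir9-1, Mir605 and Mir1246 were not analysed here.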

Additional observations from a re-analysis of the deposited data

How the results depend on the processing

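No paired analysis was possible because the libraries form a single group. The number of members past the test stayed at 0 under all 6 alternatives that were run, and the number detected was 4 to 5, with Mir449c added at 1 count in both libraries. Leaving Mir143 out of the totals raised the summed level from 544.6 to 1146 CPM and the levels of Mir34a, Mir34b, Mir34c, Mir449a and Mir449c to 374, 25.9, 535, 210.3 and 0.860 CPM. With counts of both strands the sum was 527 CPM, Mir34a 172, Mir34b 11.9 and Mir34c 246 CPM. Per 100 bases of the annotated gene, Mir34a was 174, Mir34b 14.6, Mir34c 330.1 and Mir449a 109.8 CPM. The ratio of Mir34c to Mir34b per base was 22.6. With no filter on counts, so that the TMM factors came from all genes, the log2 ratios reversed to -0.0030 for Mir34a, -0.018 for Mir34b and -0.0058 for Mir34c; the scaling alone changed these values. Over the alternatives the log2 ratio of Mir449a ran from -0.19 to -0.13 and its adjusted p in the exact binomial test from 0.191 to 0.329; its unadjusted p with no filter was 0.0402. Depth limits Mir34b and the undetected Mir449b and Mir449c most.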
